A study of Mus musculus with 3 samples.

Results

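The CTCFL peaks described here lie outside protein-coding transcripts and far from the start of any protein-coding gene. Of the 7436 CTCFL peaks listed for induced mouse ES cells, 1043 (14%) had their center outside every protein-coding transcript and more than 40 kb from the nearest protein-coding transcription start site (TSS). Their centers also lay outside the stretch from 2 kb upstream to 1 kb downstream of the TSS of any transcript, and more than 1 kb from the 3′ end of a protein-coding transcript. These distal intergenic peaks were chosen by position alone. The members nearest to the limit lay 40063, 40129 and 40221 bp from the TSSs of Adam28, Ptpn1 and N4bp1. The nearest peaks that were left out lay at 39937, 39919 and 39898 bp from those of Rragc, E2f6 and Lcor.

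The cells were ES cells with rtTA in the ROSA26 locus and a TRE-driven CTCFL-V5-GFP transgene, grown with LIF on gelatin. For the peak list, doxycycline was given for 3 days, GFP-expressing cells were sorted, and the V5 antibody was used to precipitate CTCFL together with its DNA. Cells of the same kind that received no doxycycline and were not sorted served as control for this antibody, and a further library was made with an antibody to CTCF. Each condition had 1 library, the transgene was carried by selected clones, and the induced cells made CTCF as well. The peaks of 1 library are not replicates, so the tests below compare sets of positions within this library. The list gives the start and end of each peak but no reads, which leaves the depth of a peak unknown.

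CTCF is a zinc finger protein that binds insulators and the borders of chromatin loops, and many of its sites lie far from genes. CTCFL, also called BORIS, is its germ cell paralog. Both have nearly the same zinc fingers and read similar DNA, but CTCFL is best known for binding near promoters. Long intervals without genes, or gene deserts, are poor in G and C and often flank genes for cell adhesion and neural development.

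The consensus used to find candidate binding sequences has 14 positions, of which 10 are fixed, and N stands for any base. Positions are counted from 1 at its 5′ end.
Consensus: CCNNNAGGNGGCGC
It was sought on both strands of each peak. A peak was said to have a match if at most 1 fixed position differed. A base change such as G8A gives the consensus base, its position and the base found at the site. To show what a well-matched distal intergenic site looks like, the members below combined a full match with the highest matrix scores and had only unique 36-base windows. A matrix score sums the log2 odds of each base over a stretch as long as a match with 3 bases on either side. The score of a peak is the highest at any position on either strand, which need not be the printed site. Capitals mark the match, and coordinates are on mm9.
Cdh5 peak, chr8:106552728-106552787, minus strand: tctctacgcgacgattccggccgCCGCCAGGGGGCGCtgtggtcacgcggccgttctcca
Zfp36l2 peak, chr17:84513416-84513475, plus strand: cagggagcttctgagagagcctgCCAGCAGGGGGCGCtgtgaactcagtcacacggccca
Cachd1 peak, chr4:100395276-100395335, plus strand: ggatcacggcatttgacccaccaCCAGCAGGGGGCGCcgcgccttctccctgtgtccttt
Dyrk1a peak, chr16:94935498-94935557, minus strand: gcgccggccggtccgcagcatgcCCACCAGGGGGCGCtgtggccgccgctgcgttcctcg
Scn8a peak, chr15:100701030-100701089, minus strand: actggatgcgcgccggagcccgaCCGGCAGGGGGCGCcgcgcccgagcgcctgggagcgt
The peaks around these sites were 331 to 621 bp wide, and their matrix scores ranged from 25.5 to 26.2. The closest was 45303 bp from the TSS of Dyrk1a, which encodes a protein kinase. The farthest was 73087 bp from that of Zfp36l2, which encodes an RNA-binding protein. All of them thus lay within 100 kb of a TSS.

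The members farthest from a TSS are shown for contrast, with their closest sequence to the consensus in capitals. None had a match.
Cdh20 peak, chr1:104386324-104386383, minus strand: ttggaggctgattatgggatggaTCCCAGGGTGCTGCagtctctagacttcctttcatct
Pcdh9 peak, chr14:92359924-92359983, minus strand: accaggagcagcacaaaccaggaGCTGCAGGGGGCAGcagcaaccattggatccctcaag
Dsel peak, chr1:115605413-115605472, plus strand: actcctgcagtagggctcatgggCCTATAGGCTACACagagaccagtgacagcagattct
Olfm4 peak, chr14:82243293-82243352, minus strand: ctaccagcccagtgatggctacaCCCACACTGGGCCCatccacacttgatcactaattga
Lphn3 peak, chr5:79845585-79845644, plus strand: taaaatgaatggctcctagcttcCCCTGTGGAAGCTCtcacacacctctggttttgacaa
The first of these lay 2278753 bp from the TSS of Cdh20, a cadherin gene, in an interval of 4282586 bp between protein-coding transcripts. Its closest sequence carried C1T, A6G, G11C and C12T. The peak 1925522 bp from Pcdh9, a protocadherin gene, carried C1G, G13A and C14G, and its matrix score was 10.9. The remaining 3 peaks lay 1844016, 1843143 and 1604502 bp from the TSSs of Dsel, Olfm4 and Lphn3, and each differed from the consensus at 3 fixed positions. Their matrix scores were -0.112, 2.89 and 3.49. The 5 peaks were 305 to 430 bp wide.

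To see how sparse CTCFL binding is far from protein-coding TSSs, peaks were counted per Mb of assembled sequence. The positions that satisfy the rule made up 1058.9 Mb, or 41.4% of the 2558.5 Mb assembled. They held 0.985 peaks per Mb (95% exact Poisson interval 0.926 to 1.05). All remaining sequence held 4.26 peaks per Mb (4.16 to 4.37). The density was 0.231 times that of the rest of the genome, and the two-sided exact binomial test gave a p-value below 1e-300. Poisson and Wilson intervals cover counting error only. Densities here and below count all assembled bases, including those to which 36-bp reads cannot map uniquely. The part of such bases in the differences was not tested.

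The members lay at a median of 109418 bp from a TSS, with quartiles of 62341 and 242197.5 bp. The interval between the flanking protein-coding transcripts had a median length of 394835 bp for the 1017 members with such a transcript on both sides, and it exceeded 1 Mb for 254 of them. A non-coding transcript of the annotation covered the center of 54 members (5.18%), from 44 genes. The share of the territory under such transcripts is not given here, so whether this is many or few is not known.

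Density fell with distance, for peaks with a match far more than for those without. From 40 to 100 kb there were 0.660 peaks with a match per Mb of intergenic bases (0.568 to 0.761), against 0.0221 beyond 500 kb (0.00717 to 0.0515). Peaks without a match decreased from 1.06 per Mb (0.945 to 1.19) to 0.428 per Mb (0.347 to 0.523) between the same classes. Up to 40 kb from a TSS, intergenic bases held 1.33 peaks with a match and 1.75 without one per Mb.

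**Figure D1:**
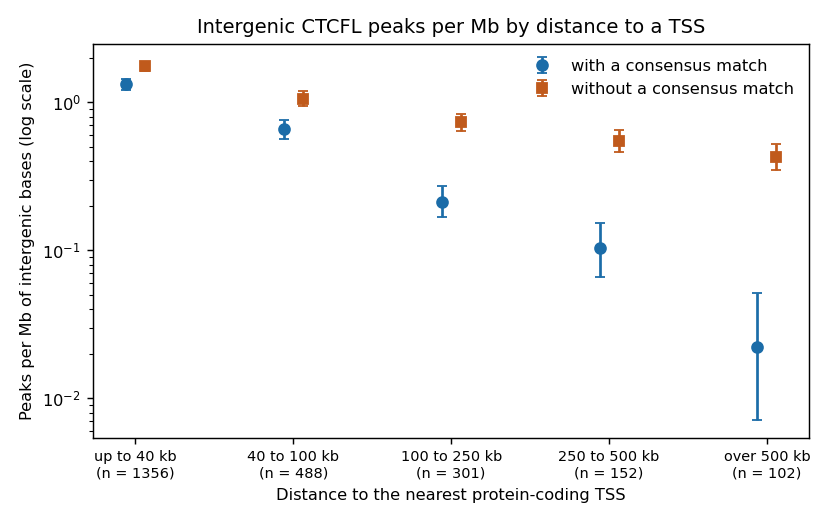
Intergenic CTCFL peaks per Mb of intergenic bases (log scale) in 5 classes of distance to the nearest protein-coding TSS, separately for peaks with and without a consensus match, with 95% exact Poisson intervals. Peaks with a match decreased from 1.33 to 0.0221 per Mb, and peaks without one from 1.75 to 0.428 per Mb.

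A consensus match was found in 284 of the 1043 distal intergenic peaks (27.2%, 95% Wilson interval 24.6 to 30%). Of these, 83 had a full match and 201 a single mismatch. Among all other peaks 46.6% of 6393 had a match, among intergenic peaks within 40 kb 43.2% of 1356, and among promoter peaks 53.6% of 2344. The distal share was lower than each of these (two-sided Fisher's exact test, adjusted p = 1.08e-32, 4.77e-16 and 1.41e-46 over the 3 comparisons). As background, equally wide windows were taken 2 kb away on both sides of each distal peak, and 20 of 2086 had a match (0.959%, 0.622 to 1.48%), so that a match was 28.4 times as frequent in the peaks. Around intergenic peaks within 40 kb, 1.84% of flanking windows had one, which gives a ratio of 23.4.

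Since distal peaks were narrower, the comparison was repeated in the central 200 bp. A match was present there in 23.8% of distal peaks, 36.2% of intergenic peaks within 40 kb (adjusted p = 5.02e-11, two-sided Fisher's exact test) and 40.9% of promoter peaks (adjusted p = 5.00e-22). The matrix was built from 2979 sites outside the distal peaks, which were best consensus matches with at most 1 mismatch. Its highest score was taken over the whole peak, so the effect of width was not removed from the shares that follow. This score exceeded those of 95% of all flanking windows in 40.8% of distal peaks (37.9 to 43.9%). It did so in 69.9% of intergenic peaks within 40 kb and in 75.9% of promoter peaks. Matches in these peaks were among the sites that built the matrix, which can favor them in this comparison. The background differed as well. Of flanking windows, 2.30% passed around distal peaks, 4.87% around intergenic peaks within 40 kb and 5.61% around promoter peaks. In 608 members (58.3%) neither the consensus nor the matrix found a site, and the same share in other peaks is not given here.

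Within the distal peaks the share with a match decreased with each step away from a TSS. It was 38.3% of 488 peaks from 40 to 100 kb (34.1 to 42.7%), 22.6% of 301 peaks from 100 to 250 kb (18.2 to 27.6%) and 15.8% of 152 peaks from 250 to 500 kb (10.8 to 22.4%). Beyond 500 kb only 5 of 102 peaks had a match (4.90%, 2.11 to 11%). The difference of 33.4 percentage points between the nearest and the farthest class, a comparison added after the shares were known, had p = 4.17e-13 in a two-sided Fisher's exact test. With peaks of at least 90% unique windows only, the 2 shares were 39.9% and 5.38%. The share with a high matrix score took the same course, from 57.0% to 6.86%. The matrix was built from consensus matches, so the 2 measures are not independent. Matches in flanking windows also became rarer, from 15 of 976 windows to 0 of 204, which allows a share of up to 1.85% (upper Wilson bound). The share in peaks was 24.9 times that in flanks from 40 to 100 kb and 34.0 times from 100 to 250 kb. From 250 to 500 kb it was 48.0 times, with a match in only 1 of 304 flanking windows. Beyond 500 kb no ratio could be formed. The median width decreased from 416.5 to 370.5 bp and the median GC content of the central 200 bp from 51.0 to 44.8% over the same classes.

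**Figure D2:**
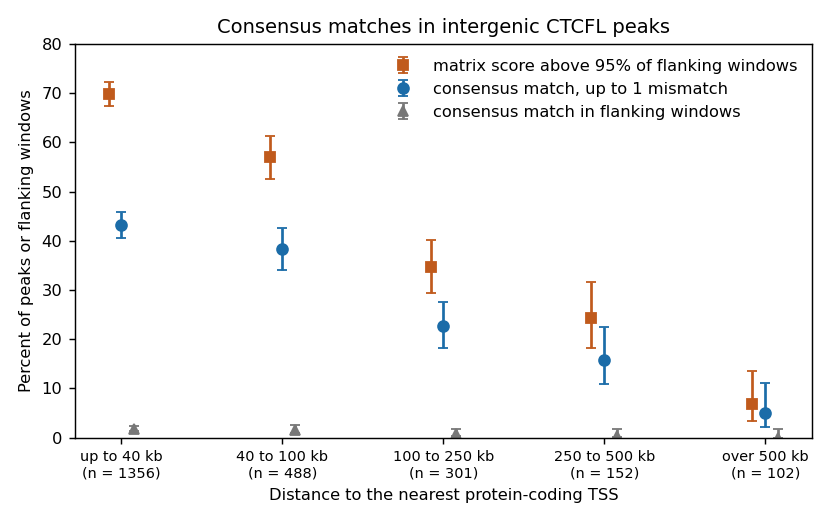
Percent of intergenic CTCFL peaks with a consensus match (circles) or a matrix score above that of 95% of flanking windows (squares), and percent of flanking windows with a consensus match (triangles), by distance to the nearest protein-coding TSS, with 95% Wilson intervals. The share with a match fell from 38.3% at 40 to 100 kb to 4.90% beyond 500 kb. In flanking windows it fell as well, from 1.54% to 0% between the same classes.

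Where a match was present it lay close to the middle of the peak. The median distance between the best match and the center was 41.0 bp in distal peaks, and 89.8% of the 284 best matches lay within 100 bp. The medians were 41.5 bp in intergenic peaks within 40 kb and 50.5 bp in promoter peaks.

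**Figure D3:**
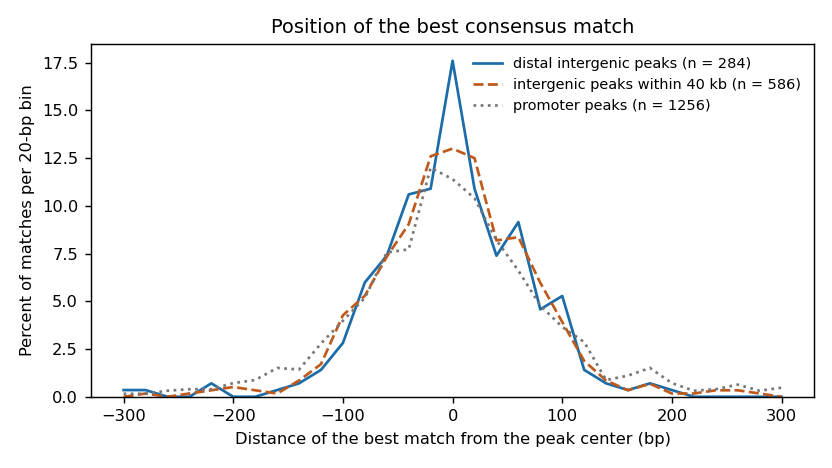
Position of the best consensus match relative to the peak center, in bp, as percent of matches per 20-bp bin, for distal intergenic peaks (n = 284), intergenic peaks within 40 kb (n = 586) and promoter peaks (n = 1256). The highest bin of each curve is centered within 20 bp of the peak center.

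The strand of the match was unrelated to the position of the nearest gene as far as this number of sites can show. The match pointed to the nearest TSS in 138 of 284 members (48.6%, 42.8 to 54.4%, two-sided exact binomial test, p = 0.678). At the 4 free positions of the 83 full matches, none of 32 comparisons of a base with intergenic peaks within 40 kb or promoter peaks passed an adjusted p of 0.05 (two-sided Fisher's exact test, Benjamini-Hochberg), and 8 had an unadjusted p under 0.05. The smallest p was for G at position 3, found in 19.3% of distal and 37.7% of promoter matches (adjusted p = 0.0552, two-sided Fisher's exact test). Position 9 was G in 67.5% of the distal full matches (56.8 to 76.6%). Among the 201 members with a single mismatch, G8A was most frequent with 38 (18.9%), followed by C12A with 24 and A6T with 18. G8A was also the most frequent single change in intergenic peaks within 40 kb (23.7% of 392) and in promoter peaks (12.3% of 932). Positions 7 and 10 were changed in only 4 and 5 of the 201 members. They were also rarely changed in intergenic peaks within 40 kb (0.510 and 1.02%) and in promoter peaks (1.82 and 3.86%).

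A further 239 members differed from the consensus at 2 positions, and 70 of these (29.3%, 23.9 to 35.3%) had G13A together with C14G, so that the site ended in GGCAG. The same pair made up 26.8% of 448 intergenic peaks within 40 kb and 8.27% of 883 promoter peaks whose best sequence differed at 2 positions (22.9 to 31.1% and 6.63 to 10.3%). The difference was not tested, because the pair was singled out after it was seen. This form was found at the 1044-bp peak 179037 bp from Plcl1 and at the peak just inside the limit by Adam28.

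Some members had more than 1 match. There were 15 with 2 matches and 1 with 3. The latter, on chromosome 15 from 100882864 to 100883723, lay 62893 bp from Ankrd33 in sequence with 72.4% GC, and its sites were a full match flanked by G8A and C12A forms. On the X chromosome, a 733-bp peak 95950 bp from Rab39b (72919154 to 72919886) held a full match and a C14A form whose starts were 496 bp apart. A pair of matches whose starts lay 47 bp apart, on opposite strands, was found 100039 bp from 4930425F17Rik. It is shown on the plus strand, with both sites in capitals.
4930425F17Rik peak, chr2:131573602-131573692, plus strand: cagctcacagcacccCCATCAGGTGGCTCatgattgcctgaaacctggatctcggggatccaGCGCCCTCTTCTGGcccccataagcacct
The left site carried G13T and the right site, read on the minus strand, G8A. The right site is one that occurs many times in the genome. At a peak 53225 bp from Mobp, a myelin gene, the same 14 bases were part of a 20-base window found at 120 places.
Mobp peak, chr9:120112012-120112071, minus strand: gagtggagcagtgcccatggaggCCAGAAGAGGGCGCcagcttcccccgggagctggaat
Such sites were few. The 20 bases around the best match occurred at 2 or more places for 28 of the 284 members and at 10 or more places for 6.

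Distal peaks were poorer in G and C than promoter peaks and richer than their own surroundings. Over the whole peak their median GC content was 46.9%, against 42.7% in their flanking windows. Their central 200 bp had a median GC content of 48.5%, against 52.0% in intergenic peaks within 40 kb and 63.0% in promoter peaks. A CpG-rich center, with at least 50% GC and an observed to expected CpG ratio of at least 0.6, was found in 78 members (7.48%). The share was 11.6% in intergenic peaks within 40 kb (two-sided Fisher's exact test, adjusted p = 8.56e-04) and 61.8% in promoter peaks (adjusted p = 2.20e-216). Members with a match had a median GC content of 51.5% over the whole peak, and 45.4% in their flanking windows. Members in which neither the consensus nor the matrix found a site had 44.7%.

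Of 13 short motifs of other factors sought on both strands of the central 200 bp, the GC box GGGCGG differed most. It was present in 6.81% of distal peaks, 10.1% of intergenic peaks within 40 kb (adjusted p = 0.0153 over 39 tests, two-sided Fisher's exact test) and 39.2% of promoter peaks (adjusted p = 1.77e-94), and in 1.54% of 200-bp windows flanking the distal peaks. The GC box shares letters with the consensus but neither contains the other. A match with C14G and a G at the last free position does contain the box, and such matches were not left out of the count. Against promoter peaks 4 motifs were more frequent in distal peaks and 3 less frequent. The SOX motif CATTGT was found in 11.4% of distal and 3.58% of promoter peaks. The CCAAT box was found in 24.5 and 16.0% and the TATA box, TATAAA, in 7.29 and 3.50%. The GATA motif AGATAA was found in 6.62 and 3.16%. All 4 were still more frequent in the windows flanking the distal peaks, at 12.9, 30.5, 19.0 and 13.2%. Against intergenic peaks within 40 kb, only the GC box passed the test.

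Distal intergenic peaks were narrow and mostly alone. Their median width was 392 bp (quartiles 325 and 488 bp), and 32.2% reached the median width of all peaks, 454 bp. This share was 44.0% among intergenic peaks within 40 kb (two-sided Fisher's exact test, adjusted p = 4.12e-09) and 65.4% among promoter peaks (adjusted p = 1.29e-71). Another peak lay within 10 kb of 67 members (6.42%). Such a neighbor was found for 17.3% of intergenic peaks within 40 kb (adjusted p = 6.03e-16) and 15.5% of promoter peaks (adjusted p = 1.60e-14, two-sided Fisher's exact test). The neighbor was itself a distal intergenic peak for 62 of the 67. The position rule leaves no promoter peak within 10 kb of a member, whereas the compared peaks can have such neighbors. The lower share of members with a neighbor is thus partly set by the rule, and the tests cannot separate this part.

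Sequence that occurs more than once could affect the mapping of the 36-bp reads. All 36-base windows were unique in the genome for 782 members. Under 90% of windows were unique in 9.40%, which was close to the 9.07% of intergenic peaks within 40 kb (difference 0.325 percentage points, two-sided Fisher's exact test, adjusted p = 0.831) and above the 3.97% of promoter peaks (adjusted p = 3.94e-09). On average 5.01% of the 20-base windows in a member occurred at 10 or more places, against 16.8% in the flanking windows.

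The members were spread over all 21 chromosomes of the list. On autosomes they numbered 0.608 to 1.58 per Mb of the territory that satisfies the rule, with the extremes on chromosomes 12 and 14. The X chromosome had 0.376 per Mb (0.255 to 0.534), or 0.363 times the 1.04 per Mb of the autosomes together (31 and 1010 peaks, two-sided exact binomial test, p = 9.32e-11). The remaining peaks were also rarer on X, with 1.08 against 4.45 per Mb, a ratio of 0.243. How many copies of X the cells carried was not given in the sources used here, and its part in the difference was not tested.

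**Figure D4:**
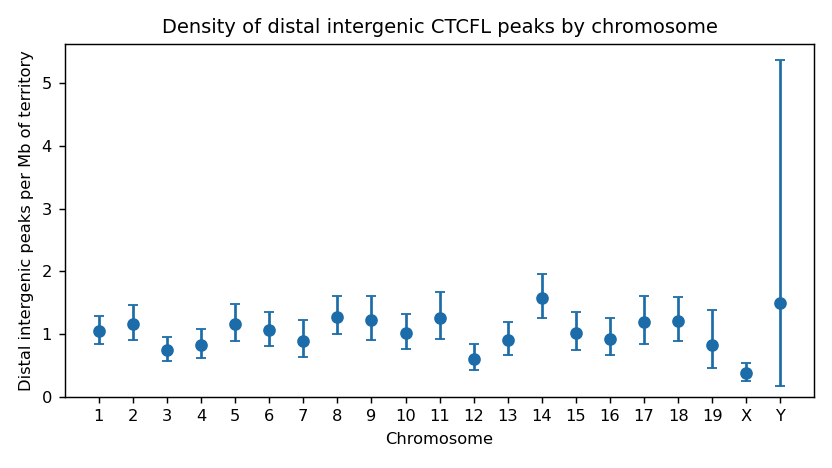
Distal intergenic CTCFL peaks per Mb of the territory satisfying the position rule, by chromosome, with 95% exact Poisson intervals. Chromosome 14 had 1.58 and X 0.376 peaks per Mb, and the 2 peaks on Y leave a wide interval.

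Most genes were nearest to a single member. The 1043 peaks had 827 nearest genes, and 671 of these had only 1. Genes of cell adhesion and axon guidance (Cdh, Pcdh, Cntn, Epha and related symbols) were nearest to 45 members (4.31%) and to 5.53% of the territory, which gives 0.768 peaks per Mb (0.560 to 1.03). A match was present in 2 of the 45, against 27.2% of all members. The 2 shares were not matched for distance to a TSS, with which the share falls. Members by Pcdh9 lay 49854 to 1925522 bp from its TSS, and those by Cdh20 lay 229371 to 2278753 bp away. Of the 45, 13 lay in a single stretch of chromosome 14 described below, and without these the share was 2 of 32 (6.25%, 1.73 to 20.1%). Genes of developmental transcription factors (Sox, Pax, Fox, Gata and related symbols) were nearest to 20 members at 19 genes, or 1.0 per Mb (0.614 to 1.55), of which 7 had a match. Chemosensory receptor genes were nearest to 23 members and had 3.01 per Mb (1.90 to 4.51). These receptor peaks came mainly from 2 places, with 7 by Olfr1324 and 6 by Olfr161. The peaks by Olfr161, in the first Mb of the assembled sequence of chromosome 16, had a median of 27.7% unique windows. All these counts are descriptions, with no test. The genes nearest to most members were Pcdh9 with 14, Olfr1324 and Tpm3-rs7 with 7 each, Olfr161 with 6, and Cdh20 and 4921530L21Rik with 5 each.

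A stretch of 1353.4 kb between Pcdh9 and 4921530L21Rik on chromosome 14 held 15 members, from 94337357 to 95690709, and no other peak. The stretch was singled out after the positions were seen, as the run of members, with no gap over 350 kb, around the widest member that had only unique windows. Its peaks were wide. The lowest, median and highest widths were 404, 838 and 1276 bp, and 14 of 15 reached the median of all peaks. Of the 31 members of at least 800 bp, 9 lay here. The widest member with only unique windows, on chromosome 14 from 94512471 to 94513746, was one of them, as were those from 94345419 to 94346384 (966 bp) and from 95387958 to 95388922 (965 bp). The remaining members among the 5 widest with unique windows were a 1233-bp peak by Mzt1 on the same chromosome (99358054 to 99359286) and the 1044-bp peak by Plcl1 on chromosome 1 (55931103 to 55932146).

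None of the 15 peaks had a match, and 1 had a high matrix score. Their GC content ranged from 34.1 to 46.5%, with a median of 39.5%, against 34.0% in their flanks. Windows were unique for 90 to 100% of each peak. The longest run of identical bases shared by any of the 105 pairs was 18, so no pair shared a long identical stretch. Diverged copies can lack such a stretch, and they were not sought. The central 200 bp of the widest peak show what sequence was found there in place of a consensus site.
Pcdh9 stretch, chr14:94513008-94513207, plus strand: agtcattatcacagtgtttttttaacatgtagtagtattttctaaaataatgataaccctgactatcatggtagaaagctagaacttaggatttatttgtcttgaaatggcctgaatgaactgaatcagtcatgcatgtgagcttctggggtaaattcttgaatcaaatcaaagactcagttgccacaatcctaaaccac
This window had 34.5% GC and no CpG. The number of reads in these peaks, in the induced or the control library, was not analysed here, and whether the stretch differs in copy number in these cells was not tested.

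**Figure D5:**
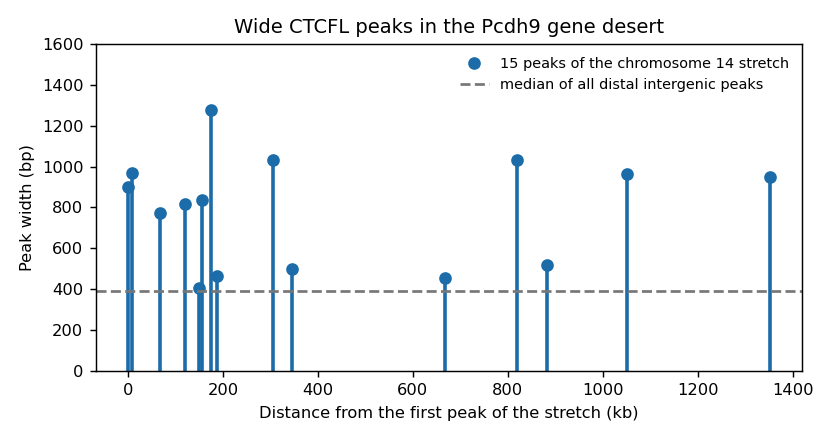
Width in bp of the 15 distal intergenic CTCFL peaks of the chromosome 14 stretch against their distance from its first peak in kb. All 15 exceed the dashed line, which is the median of all distal intergenic peaks at 392 bp, and 9 are at least 800 bp wide.

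The 82 members of chromosome 14 had a match in 11% (5.88 to 19.6%), and the 67 outside the stretch in 13.4% (7.23 to 23.6%). The 928 members on the other autosomes had one in 28.9% (26.1 to 31.9%). The members on chromosome 14 lay farther from a protein-coding TSS, at a median of 229.9 kb against 102.1 kb. Among members more than 100 kb from a TSS the shares were 7.94% of 63 (3.44 to 17.3%) and 18.9% of 471 (15.6 to 22.7%). Of these 63 on chromosome 14, 50 lay outside the stretch, and no member of the stretch had a match. From 40 to 100 kb the shares were 21.1% of 19 on chromosome 14 (8.51 to 43.3%) and 39.2% of 457 on the other autosomes (34.8 to 43.7%). The interval of 7.23 to 23.6% for the members outside the stretch takes in the shares of chromosomes 12 (16.7%) and 11 (19.6%). With the peaks of the stretch left out but its bases still counted, chromosome 14 had 1.29 per Mb (0.999 to 1.64). This was close to the 1.28 per Mb of chromosome 8 and the 1.26 per Mb of chromosome 11.

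The 7 members nearest to Olfr1324 formed a different kind of group. They lay within 51.1 kb on the X chromosome, from 47914101 to 47965189, and all within 6720401G13Rik, a non-coding gene on the minus strand that spans 47908921 to 47988498. This gene is now known as Firre, whose RNA is built in part from local repeats. Olfr1324 was the nearest protein-coding gene, 134581 to 185296 bp away. The peaks were 268 to 479 bp wide, at least 90.2% of their windows were unique, and none had a match. Their sequences were nevertheless alike. Below, 60 bases around the best site of the second peak are set beside the most similar 60 bases of each of the other peaks, without gaps. Capitals mark bases identical to the second peak, and each line reads in the direction of the gene except that of the first peak.
Peak 1, chrX:47914254-47914313, plus strand: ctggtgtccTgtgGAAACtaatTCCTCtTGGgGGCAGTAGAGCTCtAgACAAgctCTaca
Peak 2, chrX:47919697-47919756, minus strand: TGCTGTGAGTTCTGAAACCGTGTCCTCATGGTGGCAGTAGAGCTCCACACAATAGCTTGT
Peak 3, chrX:47922452-47922511, minus strand: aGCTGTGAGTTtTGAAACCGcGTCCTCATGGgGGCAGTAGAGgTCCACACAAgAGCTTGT
Peak 4, chrX:47930198-47930257, minus strand: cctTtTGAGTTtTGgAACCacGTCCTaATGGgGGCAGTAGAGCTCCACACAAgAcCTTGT
Peak 5, chrX:47944011-47944070, minus strand: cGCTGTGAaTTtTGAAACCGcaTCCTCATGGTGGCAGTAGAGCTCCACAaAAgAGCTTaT
Peak 6, chrX:47950457-47950516, minus strand: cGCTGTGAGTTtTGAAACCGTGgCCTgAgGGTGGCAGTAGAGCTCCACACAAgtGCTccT
Peak 7, chrX:47965026-47965085, minus strand: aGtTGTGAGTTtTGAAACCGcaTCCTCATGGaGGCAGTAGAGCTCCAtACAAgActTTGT
Peaks 3 to 7 shared 48 to 54 of the 60 bases with peak 2, and peak 1 shared 34. In peaks 2 to 7 the center of these 60 bases lay 0.5 to 92.5 bp from the center of the peak. The sequence CCTCATGGTGGCAG, the best site of peak 2, carried A6T, G13A and C14G. It thus has the GGCAG end found in many members with 2 mismatches.

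The repeated unit was more widespread in the gene than the peaks. On the X chromosome 15 places had at least 45 of the 60 bases, all of them in 6720401G13Rik and on its strand. A peak covered 6 of these places, and the other 9 had 51 to 56 identical bases. In the 400 bp around each place, 87.4 to 100% of 36-base windows were unique for the 6 places with a peak (median 96.8%). For the 9 places without one it was 31.5 to 97.3% (median 74.8%), and the part of unmapped reads in the missing peaks was not tested.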

How the data were processed

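The authors sequenced 36-bp reads of 3 ChIP libraries (CTCF, and V5 with and without doxycycline), aligned them with ELAND, and for their comparative analysis with BOWTIE to mm9, keeping unambiguous and unique reads. In that analysis MACS (fdr below 0.05) made the peak calls. The deposited list, exported from a genome browser, gives peak starts and ends in bp for the induced cells. The list itself does not name its aligner or threshold. It holds more peaks than the study counts as CTCFL sites, and which peaks are beyond that count was not analysed here.

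Starts were converted to 1-based positions, the center was the midpoint, and distances were taken from 22225 protein-coding genes of GENCODE vM1 on mm9. Consensus matches, base composition and genome-wide copies of 36- and 20-base windows were computed from that genome with Python 3 (numpy, scipy, pysam). Flanking windows lay 2 kb to either side. Shares of disjoint sets of peaks were compared with two-sided Fisher's exact tests, Benjamini-Hochberg adjusted over the 3 comparisons of a feature (all 39 for motifs). The functions were tested on simulated data and found all of 1000 planted matches.

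Named regions were the 5 farthest from a TSS, the 5 widest and the 5 best full matches with only unique windows, the 3 with most matches (ties by matrix score) and the 3 on either side of the limit. Named genes were the nearest gene of these and the 5 nearest to most members (6 with a tie). The X stretch follows from this rule. The members and lists were chosen with earlier results of these data known. Sequence from chromosome 18 was counted but is not printed. The libraries for CTCF and non-induced cells were not analysed here.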

Additional observations from a re-analysis of the deposited data

How the results depend on the processing

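No paired analysis was possible because there was a single library for every condition. Of 102 alternative values for 24 results, 100 kept their direction and their side of an adjusted p of 0.05. The alternatives moved the distance limit to 50 kb, left out X and Y, kept only peaks with at least 90% unique windows, merged peaks within 1 kb, left out chromosome ends, or changed the mismatches, windows and neighbor distances. Leaving out the chromosome 14 stretch, chosen after seeing the data, also changed no call. With a limit of under 50% unique windows in place of 90%, the difference from all other peaks went from 3.64 to 0.791 percentage points and lost its call (adjusted p = 0.0712, two-sided Fisher's exact test), and the difference from intergenic peaks within 40 kb, which was not called, went from 0.325 to -0.147 percentage points (adjusted p = 0.883). The cause was not tested. The density ratio stayed between 0.220 and 0.233. Where only peaks with at least 90% unique windows were kept, or the chromosome 14 stretch was left out, the bases counted remained the same. The reference marks no repeats, so the planned share of repeat-masked centers was not run. As a substitute, also chosen after seeing the data, a center with a 20-base window that occurs at 10 or more places was counted in 3.93% of distal, 3.69% of other intergenic and 1.19% of promoter peaks. The list has no peak score, so the alternative by score was not run. Since reads, control counts and replicates are missing from the list, neither the strength of a peak nor its reproducibility could be measured.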
